A study of Mus musculus with 24 samples.

Results

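The stria vascularis is the epithelium of the lateral cochlear wall that secretes endolymph, and 7 ion transport genes linked with endolymph were followed in whole cochlea, not all of them known from the stria itself: Slc12a2, Bsnd, Atp1b1, Atp1b2, Fxyd2, Slc26a4 and Atp6v1b1. They were taken by gene symbol from a table of raw read counts with 23420 entries, and all 7 were found. All 7 also passed the filter on low counts, which left 16607 genes for testing. RNA had been sequenced from whole cochleae of CBA/Sca mice aged 12 weeks, in 24 libraries that form 8 groups of 3. The groups were night noise ADX, night noise sham-operated, night sham exposure ADX, night sham exposure sham-operated, day noise ADX, day noise sham-operated, day sham exposure ADX and day sham exposure sham-operated. ADX stands for adrenalectomy, the surgical removal of the adrenal glands and with them the main source of circulating corticosterone. Noise-exposed mice heard a band between 6 and 12 kHz for 1 h, at a level of 100 dB SPL, beginning at ZT15 (night) or ZT3 (day), where ZT counts hours from lights on. The series' design text places collection 2 h after the noise, whereas the sample labels give ZT23 for night and ZT11 for day, so the exact interval is not settled. No group was left without an operation, and whether hormone was replaced after ADX is not stated in the sources used here. Per the series' title, the question was how the daily rhythm of glucocorticoids bears on noise sensitivity.

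Endolymph is rich in potassium and carries a positive voltage, the endocochlear potential, on which hair cell transduction depends. Marginal cells of the stria take up potassium at their basolateral side through the Na,K-ATPase, of which Atp1b1 and Atp1b2 encode beta subunits and Fxyd2 a regulatory gamma subunit, and through the Na-K-2Cl cotransporter encoded by Slc12a2. Chloride that enters with potassium leaves again through chloride channels that need the accessory subunit barttin, encoded by Bsnd, while potassium is secreted into the endolymph through the channel of Kcnq1 and Kcne1. Slc26a4 encodes pendrin, a chloride and bicarbonate exchanger of root, spindle and outer sulcus cells, and Atp6v1b1 encodes a B subunit of the vacuolar proton pump known from acid-secreting cells of the inner ear and kidney. In humans, loss of SLC12A2, BSND, SLC26A4 or ATP6V1B1 function is known to impair hearing.

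Counts totalled 18894996 to 36108962 per library. Levels are given in CPM, counts relative to the library total after TMM scaling, and log2 fold changes come with their standard error (SE). A change was called at a Benjamini-Hochberg adjusted p below 0.05 in edgeR's quasi-likelihood test over all 16607 genes. The labels do not say that libraries of a group came from separate animals, so p-values measure the spread between these libraries, which may be technical. Night noise ADX a stood apart by pituitary transcripts, whose 3 markers summed to 9643 CPM against at most 132.6 CPM in any other library. Night noise sham-operated b and day sham exposure sham-operated b had the highest sums of 8 cerebellar markers, 269.1 and 295 CPM, against at most 195 CPM elsewhere. Of the cerebellar markers Zic2 had the highest mean, 108.6 CPM. Gh, Pomc and Zic2 were detected in all 24 libraries, so these 3 libraries stood out by level only. They are called below the 3 libraries with pituitary or cerebellar transcripts. Of the markers that define marginal cells, 6 of 6 were detected in all 24 libraries, among them Esrrb at a mean of 130.004 CPM and Kcne1 at 114 CPM. All 8 markers of strial intermediate cells and all 4 of basal cells were detected in all 24 libraries too. The summed marginal cell markers lay between 348 and 445 CPM over the libraries. Because whole cochleae were sequenced, fewer cells of a type and less RNA per cell cannot be told apart in any value below.

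The members covered a wide range of abundance. Per kilobase of exon, Atp1b1 was the most abundant with a mean of 269 CPM per kilobase, next to 209 for Atp1b2. Slc12a2 stood at 68.3 and Slc26a4 at 51.9 CPM per kilobase. Bsnd averaged 3.05, Fxyd2 1.63 and Atp6v1b1 0.164 on that scale. The third beta subunit, Atp1b3, reached 187 CPM per kilobase. Among the gamma subunit's relatives, Fxyd6 was the most abundant of the FXYD genes at 72.9 CPM per kilobase. The broadly expressed proton pump subunit Atp6v1b2 had 45.5 CPM per kilobase, and the specialised subunits that accompany Atp6v1b1 in acid-secreting cells, Atp6v0a4 and Atp6v1g3, had 0.181 and 0.125. Foxi1, the transcription factor of such cells, had 0.388 CPM per kilobase. The proton pore subunit Atp6v0c was listed at 0 in 20 of the 24 libraries, a value of the deposited table that could not be checked against the reads.

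**Figure D1:**
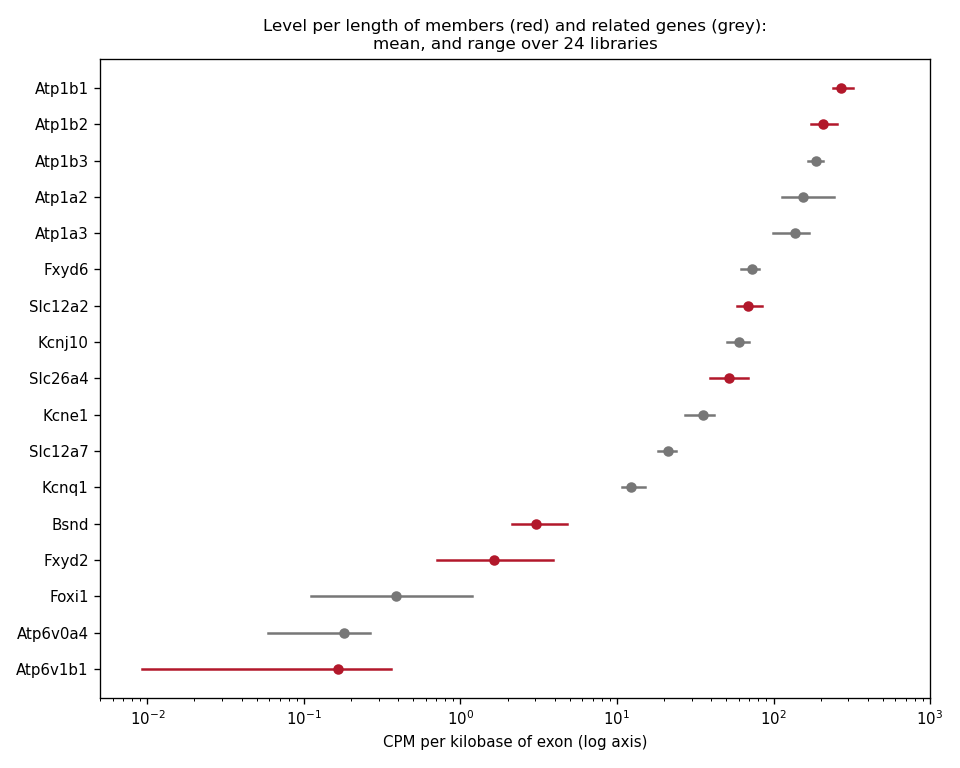
Level per length of the 7 members (red) and of related pump, channel, cotransporter and proton pump genes (grey), as CPM per kilobase of exon on a log axis; points are means and lines the range over 24 libraries. The beta subunits Atp1b1 and Atp1b2 sit at the top with Atp1b3, and Atp6v1b1 sits at the bottom next to Atp6v0a4.

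The Na,K-ATPase beta subunits varied least of the members, with a coefficient of variation within groups of 6.22% for Atp1b1 and 6.69% for Atp1b2. Atp1b1 (GRCm38 chromosome 1, 164437109 to 164458355, minus strand) ran from 735 to 991 CPM over the 24 libraries with a mean of 829 ± 57.1 CPM (SD, n = 24). Its group means lay between 790 CPM in day sham exposure sham-operated and 882 CPM in day noise sham-operated. Ordered by level, none of its 7 pairs of neighbouring groups differed by more than the larger SD of the pair. None of the 18 comparisons called Atp1b1. Of its 3081 exon bases, 575 overlap exons of Nme7, a nucleoside diphosphate kinase family gene on the opposite strand, which is 18.7%. The strand setting of the counting is not known, and the effect of this overlap on the Atp1b1 counts was not tested. Nme7 itself had 9.97 to 14.1 CPM, which does not tell how many Atp1b1 reads were gained or lost.

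Atp1b2 (chromosome 11, 69599736 to 69605942, minus strand) ran from 707 to 1034 CPM, with a mean of 852 ± 77.8 CPM (SD, n = 24). Its lowest group was night noise sham-operated, at 724, 707 and 883 CPM, and its highest was day sham exposure sham-operated, at 996, 875 and 1034 CPM. Between them the order was night noise ADX, day sham exposure ADX and the other two night groups within 790 to 845 CPM, then the noise-exposed day groups at 871 and 887 CPM. No neighbouring groups in that order differed by more than the larger SD. Over all 12 night libraries Atp1b2 had a median of 819 CPM, with 707 at the lowest and 898 at the highest, against a median of 868 CPM, 825 at the lowest and 1034 at the highest, in the 12 day libraries. The night mean was below the day mean in all 4 matched pairs of groups, although the libraries overlapped in each. In ADX mice without noise the means hardly differed, at 840.5 CPM by night and 843.6 CPM by day. The log2 fold change there was -0.005 (SE 0.085). The mean night over day log2 fold change was -0.14 (SE 0.04, 95% interval -0.23 to -0.05), with an adjusted p of 0.0613 in edgeR's test. DESeq2 gave an adjusted p of 0.0205 and limma voom 0.0362 for the same comparison.

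Slc12a2, the cotransporter (chromosome 18, 57878678 to 57946821, plus strand), ran from 643 to 919 CPM with a mean of 746 ± 68.1 CPM (SD, n = 24). Its group means fell in a narrow band from 687 CPM in night noise sham-operated to 816 CPM in day sham exposure sham-operated, and no neighbouring groups in the order differed by more than the larger SD. After noise in sham-operated mice, Slc12a2 had 673, 643 and 744 CPM at night, against 756, 803 and 825 CPM by day. These night libraries all lay below the day libraries, at a log2 fold change of -0.21 (SE 0.09) and an adjusted p of 0.272 in edgeR's test. In night sham exposure, the ADX libraries had 721, 705 and 686 CPM, all below the sham-operated libraries at 737, 817 and 773 CPM. That log2 fold change was -0.14 (SE 0.09), with an adjusted p of 0.504. Averaged over noise and surgery, the night over day log2 fold change of Slc12a2 was -0.10 (SE 0.05, adjusted p = 0.214).

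Slc26a4, the pendrin gene (chromosome 12, 31519827 to 31559969, minus strand), ran from 121 to 212 CPM, with a mean of 161 ± 22.1 CPM (SD, n = 24). Its lowest group was night noise sham-operated, at 130, 121 and 156 CPM, and its highest was day sham exposure sham-operated, at 195, 145 and 212 CPM. These groups overlapped, and no neighbours in the order of the 8 groups differed by more than the larger SD. Night values averaged 152 CPM and day values 170 CPM, a mean log2 fold change of -0.16 (SE 0.07, adjusted p = 0.161 in edgeR's test). No comparison called Slc26a4.

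Bsnd, the barttin gene (chromosome 4, 106483456 to 106492283, minus strand), was lower at night. Over noise and surgery together it had a median of 7.63 CPM in the 12 night libraries, with 5.93 at the lowest and 9.04 at the highest, against a median of 8.81 CPM, 7.33 at the lowest and 13.3 at the highest, in the 12 day libraries. The ranges overlapped, and the means were 7.54 CPM at night and 9.28 CPM by day. The mean log2 fold change was -0.29 (SE 0.07, 95% interval -0.44 to -0.14), an adjusted p of 0.0167 in edgeR's quasi-likelihood test. Bsnd was the 1 member of 7 called in this comparison, in which 6.01% of all genes tested were called and 2.25% were called lower. The call was not kept without the 3 libraries with the highest pituitary or cerebellar marker sums. There the log2 fold change was -0.28 and the adjusted p in edgeR's test 0.0637.

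The separate pairs of groups, none of which called Bsnd, were as follows. After noise in sham-operated mice they were 5.95, 5.93 and 7.83 CPM at night, against 10.95, 9.75 and 7.67 CPM by day. The log2 fold change was -0.53 (SE 0.14) with an adjusted p of 0.0754, and the groups overlapped through day noise sham-operated c. Without that library the log2 fold change was -0.66 and the adjusted p 0.0413, and without the 3 libraries with pituitary or cerebellar transcripts they were -0.46 and 0.250. In sham-operated mice without noise, Bsnd had 8.52, 9.04 and 7.22 CPM at night, against 13.3, 10.7 and 9.92 CPM by day. Here every night library lay below every day library, at -0.45 (SE 0.14) and an adjusted p of 0.179. After noise in ADX mice the values were 6.95, 6.69 and 7.83 CPM at night, against 9.12, 8.50 and 8.30 CPM by day. These did not overlap either, at -0.27 (SE 0.14, adjusted p = 0.316). In ADX mice without noise the values were 8.48, 7.43 and 8.65 CPM at night, against 7.53, 8.26 and 7.33 CPM by day. They overlapped, with a log2 fold change of 0.09 (SE 0.14, adjusted p = 0.973).

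The surgery comparison of Bsnd was widest by day without noise, where the day ADX and day sham-operated values given above did not overlap. The log2 fold change of ADX over sham-operated was -0.55 (SE 0.14) there, with an adjusted p of 0.126 in edgeR's test and 0.0263 in DESeq2's. In the other three pairs it was -0.13 for day noise, 0.13 for night noise and -0.01 for night sham exposure, each with overlapping libraries. The period by surgery interaction, the night over day log2 fold change in ADX mice minus that in sham-operated mice, was 0.40 (SE 0.14). Its unadjusted p was 0.0104 and its adjusted p 0.632. In edgeR's fit no gene was called in that interaction, 1108 genes had an unadjusted p under 0.05, and DESeq2 and limma voom called no member. By level, day sham exposure sham-operated stood first at 11.3 ± 1.76 CPM (SD, n = 3), above day noise sham-operated at 9.46 ± 1.66 CPM by more than the larger SD. That was the 1 gap of 7 between neighbouring groups that exceeded it, and night noise sham-operated stood last at 6.57 ± 1.09 CPM.

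**Figure D2:**
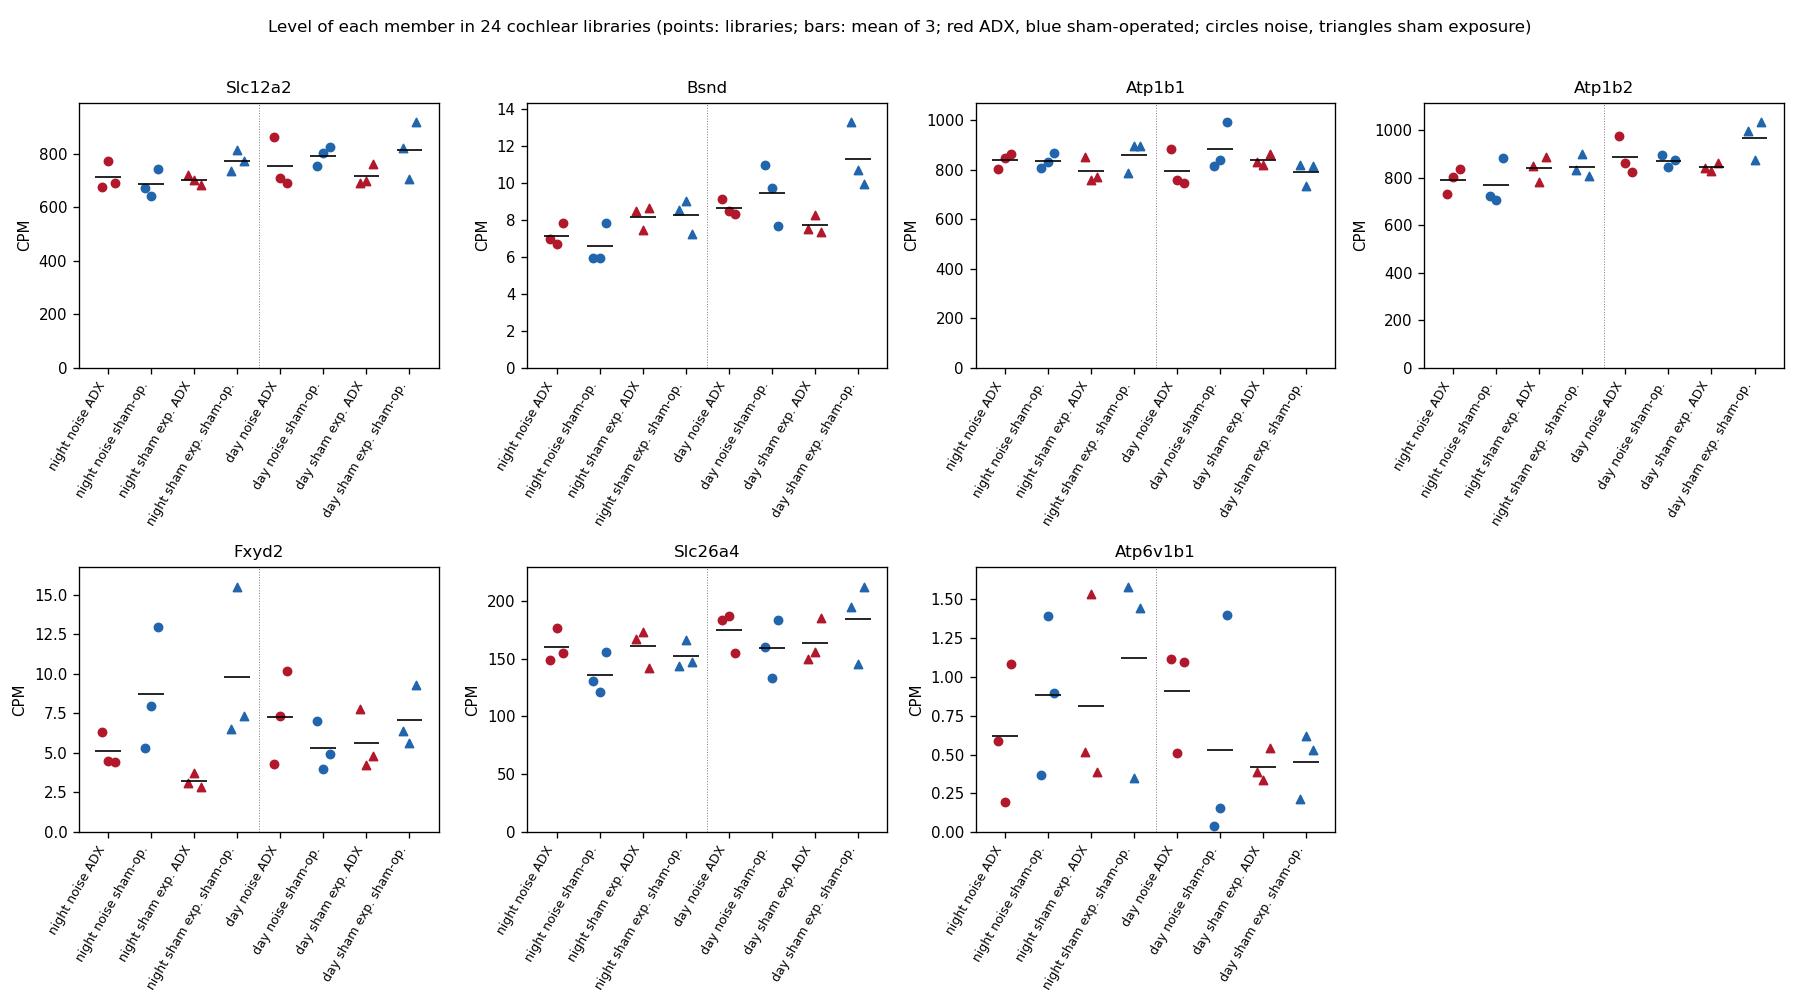
CPM of each member in the 24 libraries; each panel has the 8 groups on the horizontal axis, points are libraries and bars the mean of 3. In the Bsnd panel day sham exposure sham-operated stands highest, with a mean of 11.3 CPM, and in the Fxyd2 panel night sham exposure ADX stands lowest, with a mean of 3.22 CPM.

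Kcne1, which completes the potassium exit path of the marginal cell, also fell at night, by 0.19 on the log2 scale (SE 0.05, adjusted p = 0.0249), and 18 of 24 fits that left out a library kept that call. In edgeR's test it was the 1 gene called of the 5 tested in the list of strial potassium and chloride channels for that comparison. Of the 6 marginal cell markers, Kcne1 and the homeobox gene Hmx2 fell at night and the nuclear receptor gene Esrrb rose. Hmx2 had a log2 fold change of -0.38 (adjusted p = 0.0327) and Esrrb one of 0.16 (adjusted p = 0.0434). The summed marginal cell markers ran from 351 to 439 CPM in night libraries and from 348 to 445 CPM in day libraries, and their part in the Bsnd result was not tested.

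Fxyd2, the gamma subunit gene (chromosome 9, 45399669 to 45410278, plus strand), fell after ADX in night sham exposure. It had 3.10, 3.72 and 2.84 CPM in the ADX libraries, against 6.54, 15.5 and 7.33 CPM in the sham-operated libraries. All ADX libraries lay below all sham-operated ones, of which the b library stood far above the other two. The log2 fold change was -1.61 (SE 0.38, 95% interval -2.42 to -0.79), with an adjusted p of 0.0383 in edgeR's quasi-likelihood test. Fxyd2 was the 1 member of 7 called here, where 1.58% of all genes tested were called and 0.47% were called lower. DESeq2 gave an adjusted p of 0.00146, and limma voom also called Fxyd2. Without night sham exposure sham-operated b the log2 fold change was -1.11 and the adjusted p 0.190, and of the 6 fits that left out a library the call was kept in 1, the fit without sham-operated a, with adjusted p-values of 0.0680 to 0.190 in the others. With the replicate letter as a block the adjusted p was 0.0556.

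In the other pairs, Fxyd2 did not separate by surgery. After noise at night it had 6.32, 4.52 and 4.44 CPM in ADX libraries, against 5.29, 7.98 and 12.97 CPM in sham-operated libraries. After noise by day it had 4.30, 7.34 and 10.2 CPM in ADX libraries, against 7.02, 3.97 and 4.92 CPM in sham-operated libraries. Without noise by day it had 7.79, 4.22 and 4.82 CPM in ADX libraries, against 6.41, 5.64 and 9.30 CPM in sham-operated libraries. All these pairs overlapped, with log2 fold changes of -0.77, 0.45 and -0.35 in that order and adjusted p-values of 0.582, 0.618 and 0.806. Averaged over period and noise the log2 fold change of ADX over sham-operated was -0.57 (SE 0.19, adjusted p = 0.109 in edgeR's test, 0.0357 in DESeq2's). The period by surgery interaction was -1.24 (SE 0.38), with an unadjusted p of 0.00361 and an adjusted p of 0.577. Within the ADX mice without noise, the night libraries all lay below the day libraries, at -0.80 (SE 0.39, adjusted p = 0.801). Within the ADX mice at night, the noise libraries all lay above the sham-exposed ones, at 0.67 (SE 0.39, adjusted p = 0.622). By level, night sham exposure ADX stood last at 3.22 ± 0.448 CPM, below night noise ADX at 5.10 ± 1.06 CPM (SD, n = 3 each) by more than the larger SD. The other 6 gaps between neighbouring groups did not exceed it, and night sham exposure sham-operated stood first at 9.80 ± 4.97 CPM.

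Prph encodes peripherin, an intermediate filament of peripheral neurons. It was picked because its pattern over these same 24 libraries was among the 3 closest to that of Fxyd2. Its likeness to Fxyd2 is therefore part of that choice and no separate evidence. The library with the most Fxyd2 also had the most Prph. Prph had 2.19, 2.44 and 2.06 CPM in night sham exposure ADX, against 2.64, 21.8 and 9.9996 CPM in night sham exposure sham-operated. The b library stood highest for both genes, and Prph had a log2 fold change of -2.36 (SE 0.87, adjusted p = 0.190 in edgeR's test). Neuron markers were taken from a list. All 8 were detected in all 24 libraries and all 8 had a negative log2 fold change in that comparison, from -0.64 for Syt1 to -0.07 for Pvalb. In edgeR's test 0 of the 8 were called, 5 had an unadjusted p under 0.05, against 14.9% of all genes tested, DESeq2 called 1 and limma voom called 3. The lowest adjusted p in edgeR's test was that of the neuronal tubulin gene Tubb3, 0.0819 at a log2 fold change of -0.40. Their sum ran from 1959 to 2351 CPM in night sham exposure ADX and from 2197 to 2676 CPM in night sham exposure sham-operated. The part of such neurons in the Fxyd2 result was not tested.

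Atp6v1b1, the proton pump subunit gene (chromosome 6, 83742990 to 83758855, plus strand), had only 1 to 45 counts per library. Its levels ran from 0.0406 to 1.58 CPM, with a mean of 0.720 ± 0.487 CPM (SD, n = 24). The lowest group mean was 0.42 CPM in day sham exposure ADX, and the highest was 1.13 CPM in night sham exposure sham-operated. Libraries of 1 group differed widely: day noise sham-operated had 0.0406, 0.155 and 1.40 CPM. No neighbouring groups in the order differed by more than the larger SD, and none of the 18 comparisons called it. Averaged over noise and surgery, the night over day log2 fold change was 0.61 (SE 0.40, adjusted p = 0.417). The coefficient of variation within groups was 64.9%, and the parts of low counts and of spread between libraries in the wide error were not separated.

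Noise against sham exposure gave no call among the members. In the mean comparison of noise with sham exposure edgeR called 0 of 7 members, against 4.81% of all genes tested. At an unadjusted p under 0.05, where 18.7% of all genes stood, there was 1, Bsnd, with means of 7.96 CPM after noise and 8.87 CPM after sham exposure, a log2 fold change of -0.15 (SE 0.07, adjusted p = 0.247). DESeq2 and limma voom also called none. The log2 fold changes of the 3 most abundant members in that comparison were 0.03 for Atp1b1 (SE 0.04), -0.08 for Atp1b2 (SE 0.04) and -0.03 for Slc12a2 (SE 0.05). In the 4 separate noise comparisons edgeR called 0 of 7 members each, and DESeq2 and limma voom called none. There, all genes tested were called at 0.717% for night sham-operated, 0.5% for night ADX, 0.247% for day sham-operated and 4.02% for day ADX. At an unadjusted p under 0.05 the only member in these was Bsnd, at night in sham-operated mice (-0.33, SE 0.14, adjusted p = 0.510). The log2 fold change for noise was positive for 6 of 7 members in day ADX mice and negative for all 7 in night sham-operated mice. The lowest adjusted p among the members was 0.435 and 0.510 there in edgeR's test. Over all genes tested the median log2 fold change was -0.011 and 0.005 in these pairs. Several members varied together over the libraries, as given below, so the 7 signs are not independent.

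**Figure D3:**
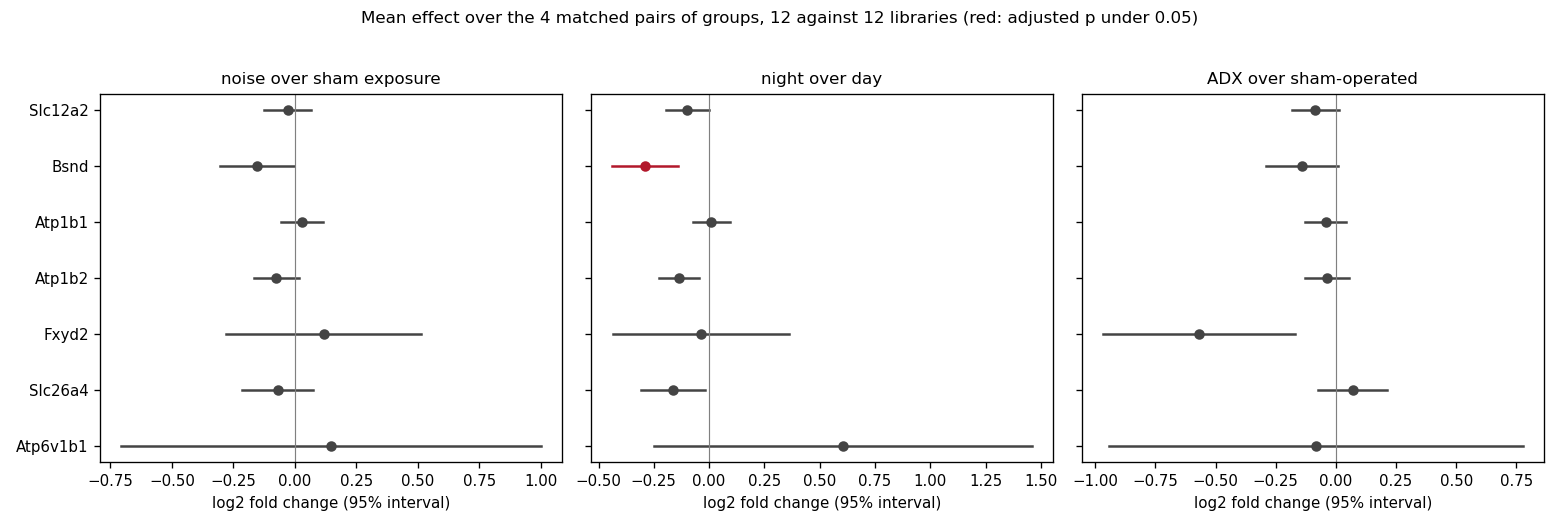
Log2 fold change of each member, with its 95% interval, for noise over sham exposure, night over day and ADX over sham-operated, each a mean over the 4 matched pairs of groups (12 against 12 libraries). The one red point, Bsnd at -0.29 for night over day, marks an adjusted p under 0.05.

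In the mean comparison of night with day, Bsnd apart, 3 more members had an unadjusted p under 0.05, Slc12a2, Atp1b2 and Slc26a4, a level that 21.3% of all genes tested reached. The median of the 7 log2 fold changes was -0.10, beside a median of -0.00171 over all genes tested. In the mean comparison of ADX with sham-operated, edgeR called 0 of 7 members against 3.2% of all genes tested, with 1 member, Fxyd2, at an unadjusted p under 0.05, as had 16.9% of all genes. DESeq2 called that 1 and limma voom called none. The 4 night and day pairs had 0 of 7 members called by edgeR, where all genes tested were called at 1.12% (noise sham-operated), 0.62% (noise ADX), 0.265% (sham exposure sham-operated) and 0.0181% (sham exposure ADX). The members with an unadjusted p under 0.05 there numbered 2 in each sham-operated pair, where DESeq2 and limma voom called 1 (Bsnd) after noise and none without, and 0 in each ADX pair, where both called none. The surgery pairs other than night sham exposure also had 0 of 7 called. All genes tested were called there at 0.0422% for day sham exposure, with 2 members at an unadjusted p under 0.05 and DESeq2 calling 1 (Bsnd), and at 0% for both noise pairs, with 0 such members and none called by DESeq2 or limma voom. In edgeR's test no interaction called a member, against 0.00602% of genes for noise by period and 0% for the others. Unadjusted p-values under 0.05 were held by 0 members for noise by period, 1 for noise by surgery and 2 for period by surgery, and neither DESeq2 nor limma voom called a member in these. In all, the libraries of a pair of groups did not overlap in 11 of 84 comparisons of a member (13.1%), against 16.5% over all genes tested in the same 12 pairs, of which between 0% and 4.02% were called. A lack of overlap was thus no more frequent among the members than over all genes.

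Members varied together in part. Over the 24 libraries, 5 of 21 pairs of members had a correlation that passed a permutation test with 100000 resamples and Benjamini-Hochberg adjustment. Bsnd and Atp1b2 had the highest, at r = 0.80 (rho = 0.81, adjusted p = 0.00021, from 1e-05, the smallest p the resamples can give), and r = 0.72 without the 2 libraries farthest from the median of Bsnd. Slc12a2 and Atp1b2 followed at r = 0.77 (rho = 0.65, adjusted p = 0.000315, 0.65 without the 2 farthest libraries). Atp1b2 and Slc26a4 had r = 0.70 (rho = 0.54, adjusted p = 0.00112, 0.52 without 2 libraries), and Slc12a2 and Slc26a4 had r = 0.68 (rho = 0.65, adjusted p = 0.00121, 0.55 without 2 libraries). These 4 pairs kept r between 0.54 and 0.76 after group means were subtracted. Slc12a2 and Bsnd, at r = 0.51 (rho = 0.48, adjusted p = 0.0442 for r and 0.0698 for rho, 0.48 without 2 libraries), had r = 0.04 after that subtraction. Atp1b1 and Slc12a2 had r = 0.48 over the libraries (rho = 0.52, adjusted p = 0.0610 for r and 0.0417 for rho, 0.57 without 2 libraries) and r = 0.73 after the subtraction. With the other members, Fxyd2 had an r of at most 0.15. The libraries differ in depth and in the tissue they carry along, as given above, and the part of these in the correlations was not tested. Slc12a2, Bsnd, Atp1b2 and Slc26a4 all had their lowest library in night noise sham-operated b, one of those with the highest cerebellar marker sums. Without the 3 libraries noted above Bsnd and Atp1b2 had r = 0.78.

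**Figure D4:**
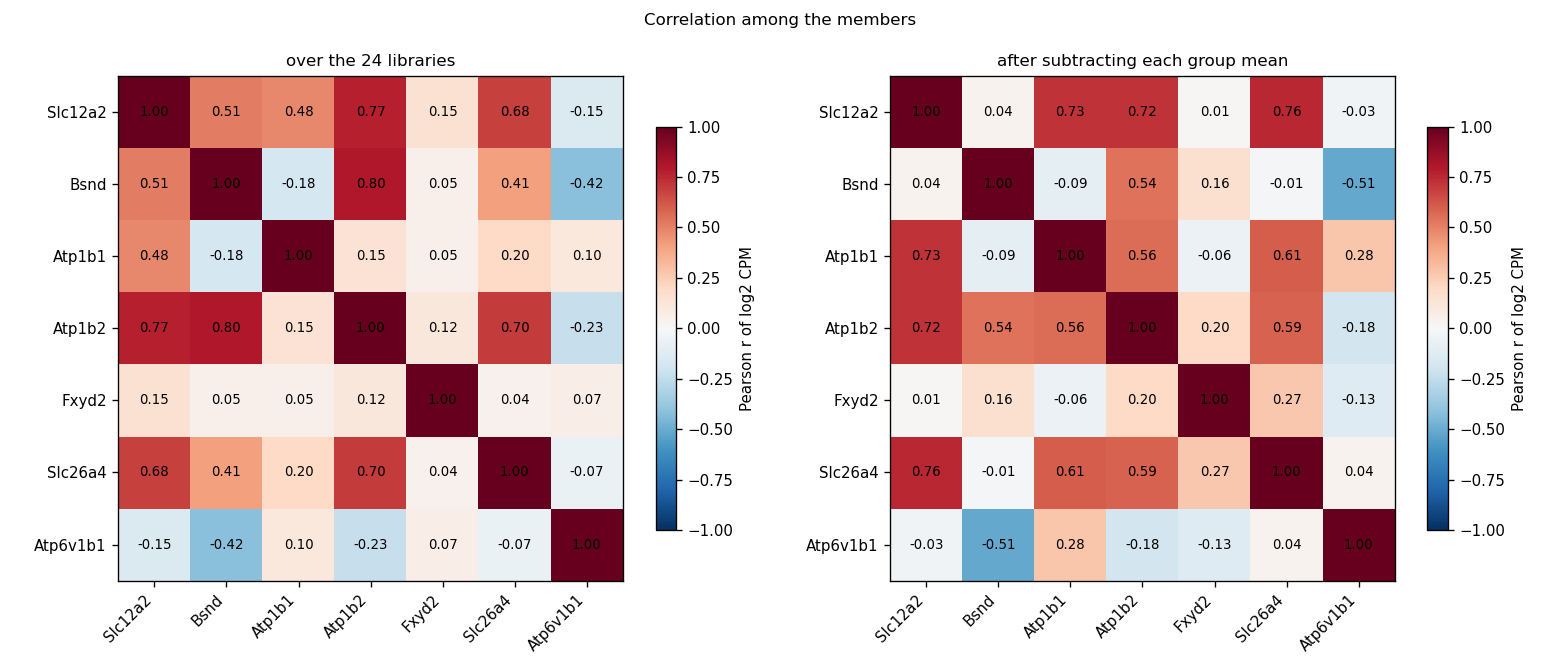
Pearson r of log2 CPM between the members, over the 24 libraries (left) and after subtraction of each group's mean (right), on a color scale from -1 to 1. Atp1b2, Slc12a2 and Slc26a4 are correlated in both panels, whereas Slc12a2 and Bsnd have 0.51 in the left and 0.04 in the right panel.

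The genes whose pattern over the 24 libraries came closest to each member are given as a description by Pearson r of log2 CPM. They were picked in these same libraries, so highs and lows that they share with the member are part of that choice. Slc12a2 was closest to Tyr, the pigment enzyme tyrosinase (0.89), Kat2b, a histone acetyltransferase (0.86), and Slc44a3, a choline transporter-like gene (0.86). For Bsnd they were Npas2, a circadian transcription factor (0.85), Pskh1, a serine kinase gene (0.83), and Hmx3, a homeobox gene of inner ear development (0.82). Npas2 had 17.7, 12.6 and 13.7 CPM in day sham exposure sham-operated and at most 11.2 CPM in any other library, so its highest group was also that of Bsnd. Atp1b1 was closest to Cds1 (0.88), Epn3 (0.85) and Vdac1 (0.85), of which Vdac1 encodes a channel of the outer mitochondrial membrane. Atp1b2 was closest to Slc51a (0.85), Pskh1 (0.85) and the adrenergic receptor gene Adra1b (0.83). Slc26a4 was closest to Gas2 (0.90), Muc15, a membrane mucin gene (0.89), and Aass, a lysine-degrading enzyme gene (0.83).

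For the other members, the closest genes include ones known from peripheral neurons and from airway epithelium. Fxyd2 was closest to Tusc5 (0.76), Tlx2, a homeobox gene of peripheral neurons (0.75), and Prph (0.74). Prph ran from 1.55 to 21.8 CPM over the libraries and Tlx2 had no more than 0.811 CPM in any. Among the genes closest to Atp6v1b1 were Cyp2f2, an enzyme gene of airway secretory cells (0.80), and Bpifa1, a secreted airway and middle-ear protein gene (0.80). Bpifa1 ran from 714 to 3627 CPM, and Cyp2f2 from 52.1 to 229 CPM. In the library with 0.0406 CPM of Atp6v1b1, Bpifa1 stood at 714 CPM, its lowest.

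**Figure D5:**
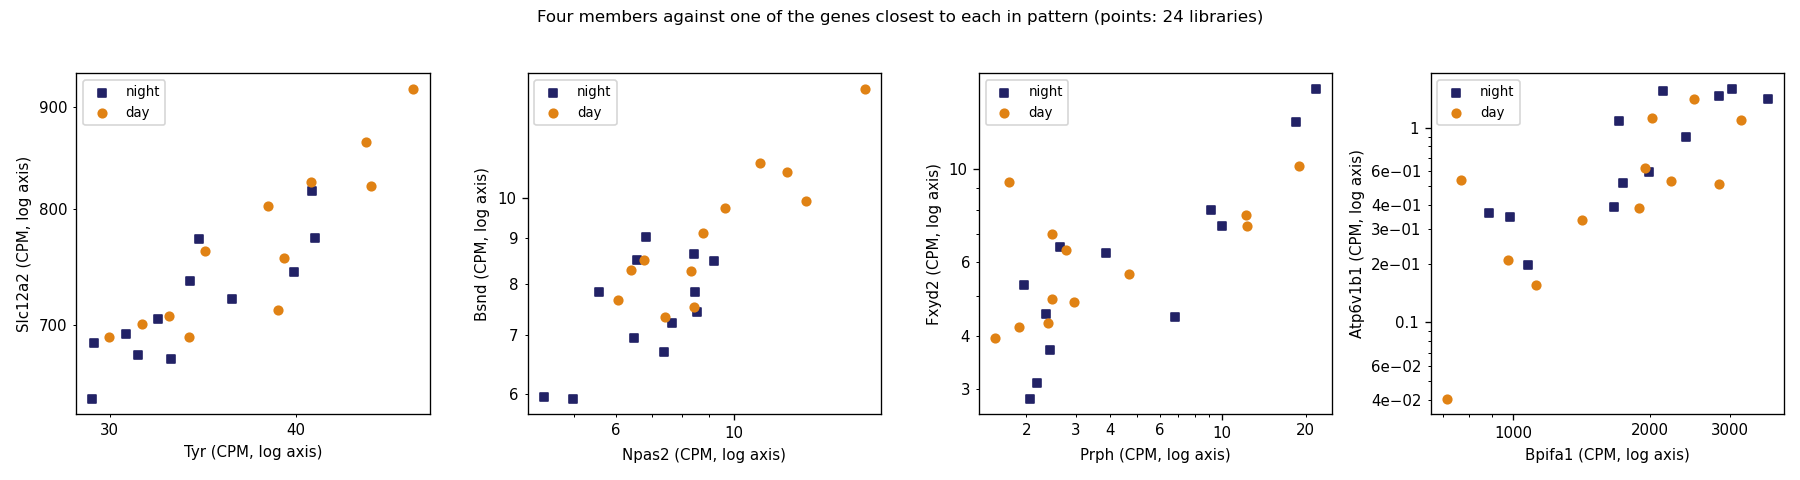
CPM of Slc12a2, Bsnd, Fxyd2 and Atp6v1b1 against Tyr, Npas2, Prph and Bpifa1 in the 24 libraries, on log axes, with night libraries as squares and day libraries as circles. The second gene of each pair was picked for its high r with the member in these same libraries, so a joint rise is given by the choice. The r values are 0.89, 0.85, 0.74 and 0.80 on the log2 scale.

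The other genes of these pathways were taken from lists. Of 9 other Na,K-ATPase and FXYD genes tested, 0 were called by edgeR in each of the mean comparisons of noise, period and surgery, with 0, 1 and 4 at an unadjusted p under 0.05. For these, DESeq2 called 1 after surgery and none otherwise, and limma voom called none. Of 21 other proton pump subunits tested, 0 were called by edgeR in those comparisons, with 7, 6 and 2 at an unadjusted p under 0.05. DESeq2 and limma voom each called 1 for noise, 1 for period and none for surgery. A subunit of this list, Atp6v1b2, fell in night sham exposure after ADX (-0.20, SE 0.05, adjusted p = 0.0433 in edgeR's test). There 1.58% of all genes tested were called. The Atp6v1b2 call was kept in 1 of 6 fits that left out a library and in 4 of 7 other settings. Among 13 other cation-chloride cotransporters and their kinases tested, the thiazide-sensitive cotransporter gene Slc12a3 rose after ADX in the mean comparison, by 0.49 (SE 0.11, adjusted p = 0.0142), and the kinase gene Wnk4 fell by 0.27 (SE 0.05, adjusted p = 0.00584). In the mean comparison of night with day, Slc12a4, a potassium-chloride cotransporter gene, was the 1 gene of that list called, and it rose by 0.19 (SE 0.03, adjusted p = 0.000681). These calls of Slc12a3, Wnk4 and Slc12a4 were kept in all 24 fits that left out a library.

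Of 18 other anion exchanger and carbonic anhydrase genes tested, 2 fell after noise in the mean comparison: the transporter gene Slc4a11 (-0.35, adjusted p = 0.0353) and the carbonic anhydrase gene Car12 (-0.17, adjusted p = 0.0227). Another carbonic anhydrase gene, Car14, rose at night (0.31, adjusted p = 0.0427) and fell after ADX (-0.36, adjusted p = 0.0284) in the mean comparisons. In the 24 fits that left out a library, the call of Slc4a11 was kept in 7, that of Car12 in 19, and those of Car14 in 8 for night and 12 for ADX. Of 9 genes of corticosteroid-regulated sodium transport, 2 fell after ADX in the mean comparison. They were Scnn1a, a subunit of the epithelial sodium channel (-0.37, SE 0.08, adjusted p = 0.0108), and the glucocorticoid-induced Tsc22d3 (-0.40, SE 0.09, adjusted p = 0.0206), both kept in all 24 such fits. Tsc22d3 rose at night, by 0.33 (adjusted p = 0.0327), a call kept in 15 of 24. The kinase gene Sgk1 rose after noise, at a mean log2 fold change of 1.00 (SE 0.06, adjusted p = 6.56e-10), and the glucocorticoid receptor gene Nr3c1 fell, at -0.13 (adjusted p = 0.0416), kept in 24 and in 9 of those fits. None of the 7 members was called in the noise comparisons in which Sgk1 rose.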

How the data were processed

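Whole cochlear RNA of 24 libraries was measured. Per the labels' protocols, libraries were made with a stranded TruSeq mRNA kit from 300 ng of RNA, loaded in pools of 6 and read as single 50-base reads, and which library was in which pool is not given in the sources used here. The authors deposited raw counts per gene symbol, and per the submitters' processing notes TopHat2 2.0.11, HTSeq 0.6p1 and build mm10 were used. The gene annotation and the strand setting are not given in the sources used here. In the deposited counts, 27 entries with names turned into dates (25 different names) held 0.214% of all counts and were kept unnamed. Positions and exon lengths came from GENCODE vM21 (GRCm38).

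Low genes were removed by filterByExpr (minimum count 10, minimum total 15) of edgeR 4.0.16 under R 4.3.3, and the libraries were scaled by TMM (factors 0.974 to 1.02) and fitted by robust quasi-likelihood with 1 coefficient per group, leaving 16 residual degrees of freedom. There were 18 two-sided comparisons, each adjusted by Benjamini-Hochberg over 16607 genes with a threshold of 0.05. Log2 CPM used a prior count of 2, and CPM per kilobase divides by the union of exons. Intervals are at 95%, from the SE. The procedure was tested on simulated data. Alternatives were RLE size factors, DESeq2 1.42.0, limma 3.58.1 (voom with library weights), no filter, the replicate letter as a block, a fit of the compared groups alone, the fit without the 3 libraries with pituitary or cerebellar transcripts, and leaving out each library. Named are the 7 members, up to 6 called pathway genes per comparison by the smallest adjusted p, the 3 genes closest to each member, and marker genes beside a result. Some genes that this rule takes are not reported here, and other genes with levels in the text were picked with their values in view. The members, the 6 pathway lists and the 16 marker lists were chosen with earlier results of these data known. Letters a, b and c mark no stated litter or day, and the main fit had no term for them. Deviations from group means were correlated between libraries with the same letter. In 1 of 12 pairs of groups all 3 correlations exceeded 0.1. Between sham-operated groups every correlation was positive, from 0.02 (night over day, sham exposure, b) to 0.41 (noise, night, a). Between ADX groups, and between ADX and sham-operated groups, both signs occurred, down to -0.26. A deviation shared by letter thus remains possible in sham-operated libraries.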

Additional observations from a re-analysis of the deposited data

How the results depend on the processing

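No called value of a member changed its direction under any alternative run. The 2 calls of members did not hold under all settings. For ADX over sham-operated in night sham exposure, 0 members were called with no low-count filter (Fxyd2 adjusted p just above 0.05), with the replicate block (0.0556) and in the fit of the compared groups only (0.0514), and between 0 and 1 when a library was left out. For night over day averaged over noise and surgery, 2 were called by DESeq2 and by limma voom (Bsnd and Atp1b2), 0 without the 3 libraries with pituitary or cerebellar transcripts, and between 1 and 2 when a library was left out. For night over day after noise in sham-operated mice, where edgeR called none, DESeq2 and limma voom called 1 and leaving out a library 0 to 1. DESeq2 called 1 for ADX over sham-operated in day sham exposure (Bsnd) and 1 in the mean over period and noise (Fxyd2). The replicate block changed no other count of called members, and the causes of these changes were not tested. The count of 5 correlated pairs ran from 4 to 6 when a library was left out.

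Counts over all genes moved more. When a library was left out, the count for noise in day ADX mice ran from 144 to 2254 against 667 with all libraries, that for ADX in night sham exposure from 0 to 196 against 263, and that for night over day averaged over noise and surgery from 698 to 1238 against 998. Other settings gave 410 to 1405 for noise in day ADX mice. limma voom gave 1242 for ADX in night sham exposure and 1463 for the mean of night over day, and DESeq2 gave 1125 for the mean of noise, where edgeR gave 798. For ADX after noise edgeR called 0 genes by day, with 1950 at an unadjusted p under 0.05, and 0 at night, with 1420 such genes, and other settings gave up to 2 and 33, or 760 and 162 without a library. For the other pairs, the settings other than leaving out a library spread as follows: noise, 30 to 123 against 41 (day sham-operated), 44 to 184 against 83 (night ADX), 82 to 254 against 119 (night sham-operated), and night over day, 0 to 434 against 103 (noise ADX), 31 to 482 against 186 (noise sham-operated), 2 to 38 against 3 (sham exposure ADX) and 13 to 410 against 44 (sham exposure sham-operated). ADX in day sham exposure ran from 6 to 177 against 7, and the mean of ADX from 468 to 897 against 532. Interactions gave up to 7, 45 and 18 genes. Scaling moved the median log2 fold change of all genes by at most 0.00848. The 1 to 45 counts of Atp6v1b1 and the 3 libraries per group limit the precision.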
